A study of Mus musculus with 26 samples.

Results

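The zinc, manganese and phosphate carriers described here are 9 genes of the mouse mammary gland: the metal importers Slc39a8, Slc39a14 and Slc39a3, the zinc exporters Slc30a2, Slc30a4 and Slc30a5, and the phosphate importers Slc34a2, Slc20a1 and Slc20a2. The members were all probe sets of the Affymetrix whole-genome mouse array that its annotation gives to one of these symbols alone. The rule used no measured value, but the genes were listed with earlier results of these data known. It found 17 of the 45037 probe sets tested, for 9 of 18193 genes with a probe set of their own. Of the genes, 5 have more than 1 probe set. Of these, the probe set whose mean over the 26 arrays was highest is called the leading one. All 9 genes were measured, and no filter on low values was applied.

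Total RNA of the inguinal mammary gland was measured on 26 arrays in 6 groups, and the labels name each array as a separate sample. CBA/CaH mice were sampled on day 12 of pregnancy (5 arrays) and on day 9 of lactation (3 arrays), and mice of the QSi5 strain on the same days (5 and 3 arrays). An Advanced Intercross Line (AIL) of these 2 strains in generation 14 was sampled on lactation day 9 only, as 5 arrays coded AC and 5 coded AQ. The labels do not say what the codes stand for. The labels name no transgene, no treatment and no age. Nothing in the labels says whether the mice of a group were littermates, so p-values measure only the spread between these samples, which may be technical. No AIL mouse was sampled in pregnancy, and the AIL therefore enters only the comparisons within lactation.

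Milk is the only source of zinc, manganese and phosphate for a suckling pup, and the secretory epithelium moves all of them from blood to milk. ZIP proteins, the Slc39 family, carry zinc and, for ZIP8 and ZIP14, manganese into the cytosol. ZnT proteins, the Slc30 family, carry zinc out of the cytosol into vesicles, the Golgi or the space outside the cell. Sodium-coupled carriers of the Slc34 and Slc20 families take phosphate into the cell. The Golgi packs phosphate with calcium and casein into micelles. On which side of the cell a carrier works was not measured here.

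Values are log2 robust multi-array average (RMA) levels as deposited, from 2.34 to 15.13 over all probe sets and arrays. A difference of 1 log2 unit is a doubling of the signal. Levels were compared between groups for the same probe set and never between probe sets, since each has its own sensitivity. Differences were tested with limma, and a probe set was called where its p-value, adjusted over all 45037 probe sets by Benjamini-Hochberg, was under 0.05. The 3' minus 5' difference of the Gapdh control probe sets reads RNA integrity and labelling. It was 0.54 to 0.80 log2 units on the 10 AIL arrays and 1.12 to 2.02 on the 6 other lactation arrays, with no overlap. In pregnancy it was 0.89 to 6.50, with the highest value on QSi5 array 4. In all, 7 arrays stood apart from their group in this difference or in markers of skeletal muscle, brown fat or B and plasma cells: pregnancy CBA/CaH arrays 3 and 5, pregnancy QSi5 arrays 3, 4 and 5, lactation QSi5 array 2 and AIL AC array 1. The beta-casein gene Csn2 lay between 14.14 and 14.96 on the pregnancy arrays and between 14.76 and 14.87 on the lactation arrays, near the top of the scale.

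The first question was how the carriers differed between pregnancy day 12 and lactation day 9 in each parental strain. The apical phosphate importer Slc34a2, the zinc and manganese importer Slc39a8, the zinc exporter Slc30a2 and the phosphate importer Slc20a1 rose in both strains. A probe set of Slc20a2 and the leading one of Slc39a14 fell. In CBA/CaH, 12 of the 17 probe sets (70.6%) passed the test, 9 higher and 3 lower in lactation, for 7 of the 9 genes. In the whole array, 53.0% of probe sets passed in this comparison, 32.3% higher and 20.7% lower. In QSi5, 12 of 17 passed as well, again 9 higher and 3 lower, against 59.1% of the array, 35.9% higher and 23.1% lower. With most probe sets of the array called, the counts of members are given as a description. The 17 members had a median difference of 0.48 in CBA/CaH, where that of all probe sets was 0.17, and of 0.47 in QSi5, beside 0.19. The arrays' medians differed between the stages. With equal array medians the median over all probe sets moved to -8.33e-05 in CBA/CaH and -0.03 in QSi5. The calls of the whole array then split into 9095 higher and 11119 lower in CBA/CaH, where the values as deposited gave 14546 and 9303. In QSi5 they split into 9733 and 12778, where the values as deposited gave 16186 and 10410. The members then split into 8 higher and 3 lower in CBA/CaH and 5 higher and 5 lower in QSi5.

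**Figure D1:**
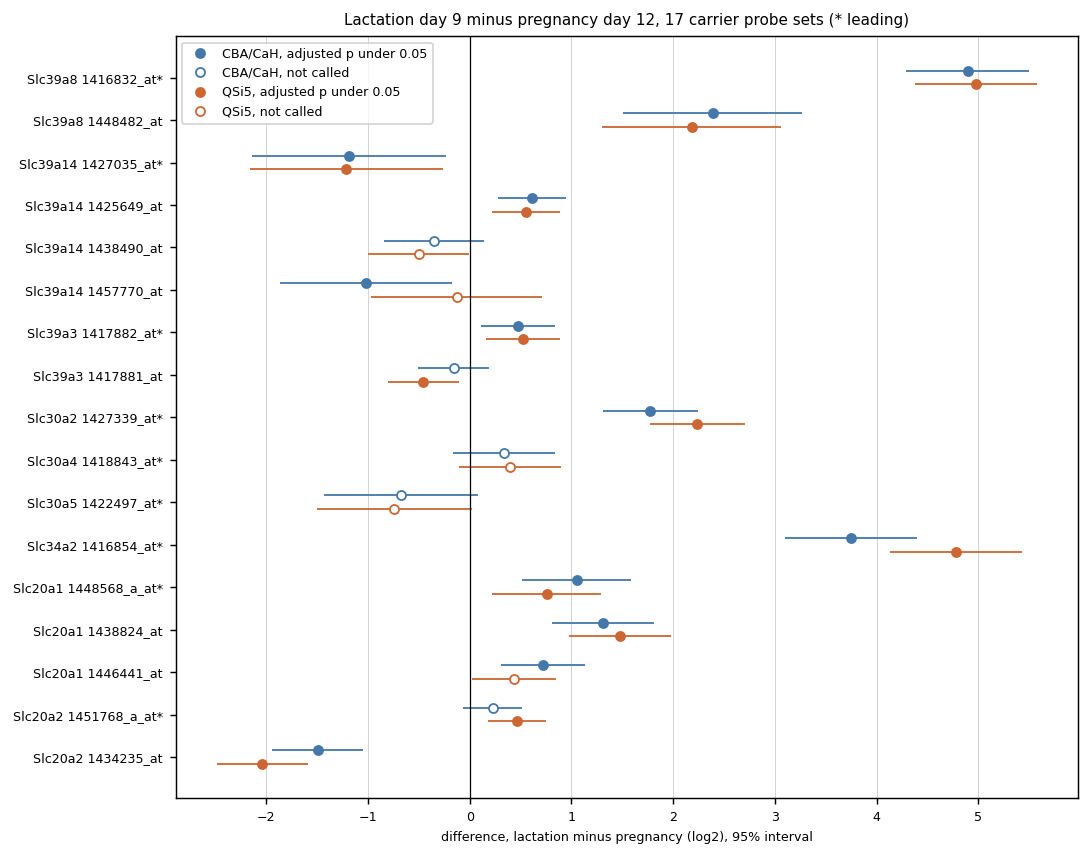
Lactation minus pregnancy difference (x axis, log2) for each of the 17 carrier probe sets (y axis, leading ones starred) in CBA/CaH and QSi5. Points are limma estimates, bars 95% intervals, and filled points passed an adjusted p of 0.05. The leading Slc39a8 probe set and Slc34a2 lie farthest to the right in both strains, and the second Slc20a2 probe set farthest to the left in QSi5 at -2.04.

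Slc39a8 encodes ZIP8, a bicarbonate-coupled importer of zinc and manganese, and 2 probe sets measure it. The leading one (1416832_at) read 8.18, 7.97, 7.98, 8.91 and 7.27 on the 5 pregnancy arrays of CBA/CaH and 7.64, 7.13, 7.71, 7.54 and 8.19 on those of QSi5. In lactation it read 13.29, 12.71 and 12.87 in CBA/CaH and 12.64, 12.58 and 12.65 in QSi5. Every lactation array lay more than 3 log2 units above every pregnancy array of either strain. The difference was 4.90 in CBA/CaH (SE 0.28, adjusted p of 9.37e-09), a 29.8-fold rise, and 4.98 in QSi5 (SE 0.28, adjusted p of 5.01e-09), a 31.5-fold rise. The second probe set (1448482_at) rose less, by 2.39 in CBA/CaH (SE 0.41, adjusted p of 2.54e-04) and 2.18 in QSi5 (SE 0.41, adjusted p of 3.97e-04). It read 3.60, 3.69, 4.11, 5.81 and 3.72 on the pregnancy arrays of CBA/CaH, where array 4 stood out at the top, and 3.91, 3.56, 4.11, 4.25 and 4.47 on those of QSi5. In lactation it read 7.03, 6.82 and 5.87 in CBA/CaH and 6.43, 6.05 and 6.24 in QSi5, and stages did not overlap. Both probe sets kept their calls in both strains under every alternative run, including every array left out in turn. The gene's windows before its 2 listed RefSeq starts were searched for the core of the metal response element, the site of the zinc sensor MTF1, whose letters are TGCACNC or TGCGCNC on either strand. The 30 bases before the second start, chr3:135825627-135825656 on the plus strand of GRCm38.p6, are shown because they hold the only match, in capitals, read on the opposite strand.
Slc39a8: ttatctctaaaGGGTGCAgggcctgatctc

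Slc39a14 encodes ZIP14, the closest relative of ZIP8 and a carrier of zinc, manganese and iron, and its 4 probe sets did not move together. The leading one (1427035_at) read 9.73, 10.48, 9.41, 9.78 and 9.23 in pregnant CBA/CaH mice and 8.43, 8.67 and 8.52 in lactating ones. In QSi5 it read 10.31, 10.13, 9.93, 7.83 and 10.44 in pregnancy and 8.43, 8.45 and 8.66 in lactation. All lactation arrays of both strains lay below the pregnancy arrays, except that pregnancy QSi5 array 4, with a Gapdh difference of 6.50, lay below all 6. The level fell, with a difference of -1.18 in CBA/CaH (SE 0.45, adjusted p of 0.0361) and -1.21 in QSi5 (SE 0.45, adjusted p of 0.0292). Without that array the QSi5 difference was -1.69 (adjusted p of 1.88e-05). With it, both calls were lost with quantile normalization or cyclic loess. They were also lost in CBA/CaH without pregnancy array 1, 2 or 4 or any lactation array of that strain, and in QSi5 with only the groups compared in the fit or without any other pregnancy or lactation array of that strain, up to an adjusted p of 0.285 in CBA/CaH and 0.335 in QSi5. The probe set 1425649_at went the other way and rose, by 0.61 in CBA/CaH (adjusted p of 0.00454) and 0.56 in QSi5 (adjusted p of 0.00687). With quantile normalization the differences were 1.23 in CBA/CaH and 1.25 in QSi5 (adjusted p of 3.87e-05 and 2.45e-05), and with cyclic loess 1.17 and 1.21. In QSi5 the call was lost with equal array medians, at 0.34 (adjusted p of 0.0989). The probe set 1457770_at fell in CBA/CaH, with a difference of -1.02 (adjusted p of 0.0413). That call was lost without each of 7 single arrays, namely pregnancy CBA/CaH array 1, 2, 3 or 5, lactation CBA/CaH array 1 or 2 and lactation QSi5 array 3, up to an adjusted p of 0.143. In QSi5 this probe set differed by -0.13 (adjusted p of 0.793). The fourth (1438490_at) differed by -0.35 and -0.50 and passed in neither strain. In QSi5 it passed with equal array medians, at -0.72 (adjusted p of 0.0205), with array weights, and without lactation QSi5 array 2 or 3. No single direction can be given for the gene between the stages.

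Slc39a3 encodes ZIP3, an importer known for zinc uptake into mammary epithelial cells. The leading probe set (1417882_at) read 6.94, 6.94, 6.87, 6.65 and 6.99 in pregnancy and 7.20, 7.28 and 7.59 in lactation in CBA/CaH. In QSi5 it read 6.82, 6.74, 6.89, 7.34 and 6.72 in pregnancy and 7.05, 7.56 and 7.67 in lactation. The stages overlapped in QSi5, through pregnancy array 4, and not in CBA/CaH. It rose by 0.48 (SE 0.17, adjusted p of 0.0277) and 0.53 (SE 0.17, adjusted p of 0.0148). With quantile normalization the differences were 0.95 in CBA/CaH and 1.05 in QSi5 (adjusted p of 0.00145 and 5.54e-04), and with cyclic loess 0.83 and 0.95. With equal array medians both calls were lost, at 0.30 (adjusted p of 0.138) and 0.30 (adjusted p of 0.127). The calls were also lost in CBA/CaH without pregnancy array 4 or lactation array 3, and in QSi5 without lactation array 2 or 3, up to an adjusted p of 0.141 and 0.127. The second probe set (1417881_at) differed by -0.16 in CBA/CaH (adjusted p of 0.431) and, with a fall, by -0.46 in QSi5 (adjusted p of 0.0271), so the 2 probe sets of this gene disagreed in sign in both strains. The QSi5 call of the second was lost without pregnancy array 5 or lactation array 2, and under 5 other settings.

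Among the zinc exporters, Slc30a2 rose and the others did not pass the test. Slc30a2 encodes ZnT2, which loads zinc into secretory vesicles, and whose loss in nursing mothers leaves milk poor in zinc. Its probe set (1427339_at) read 4.93, 4.95, 4.42, 4.60 and 4.44 in pregnant and 6.38, 6.89 and 6.06 in lactating CBA/CaH mice. In QSi5 it read 4.89, 4.66, 4.55, 4.53 and 4.98 in pregnancy and 7.08, 6.45 and 7.35 in lactation. All 6 lactation arrays lay above all 10 pregnancy arrays. It rose 3.42-fold in CBA/CaH, by 1.78 (SE 0.22, adjusted p of 1.47e-05), and 4.71-fold in QSi5, by 2.24 (SE 0.22, adjusted p of 1.12e-06). Both calls held under every alternative run. Its promoter window holds 2 metal response element cores close together, and the 30 bases around them, chr4:134343248-134343277 on the plus strand of GRCm38.p6, are shown with both in capitals.
Slc30a2: tcccGCGCGCAacttcgaGGGCGCAccgag

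Slc30a4 encodes ZnT4, the exporter mutated in the lethal milk mouse, whose dams give zinc-poor milk. Its level (1418843_at) was 10.31, 10.54, 10.09, 9.93 and 9.88 in pregnant and 10.57, 10.45 and 10.44 in lactating CBA/CaH mice. In QSi5 it was 10.33, 10.55, 10.36, 9.27 and 10.36 in pregnancy, where array 4 lay lowest, and 10.47, 10.51 and 10.74 in lactation. Stages overlapped in both strains. The difference was 0.34 in CBA/CaH (95% interval -0.16 to 0.84, adjusted p of 0.235) and 0.40 in QSi5 (95% interval -0.10 to 0.90, adjusted p of 0.155). With quantile normalization it was 0.91 and 1.01 and passed in both strains, as it did with cyclic loess. A rise well past 1 log2 unit lies outside the intervals of the values as deposited, and 0 lies inside them. The 250 bases before its start, chr2:122702664-122702913 on the minus strand of GRCm38.p6, are shown because they hold the most matches to the metal response core of any member. The third match, at the right end, runs 1 base past the start, so 6 of its 7 letters are shown.
Slc30a4: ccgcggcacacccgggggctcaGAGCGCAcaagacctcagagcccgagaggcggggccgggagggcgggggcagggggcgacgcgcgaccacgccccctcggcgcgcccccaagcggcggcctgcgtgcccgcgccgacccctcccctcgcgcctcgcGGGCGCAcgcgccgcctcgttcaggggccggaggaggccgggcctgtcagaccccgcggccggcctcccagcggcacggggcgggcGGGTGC

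Slc30a5 encodes ZnT5, which supplies zinc to enzymes of the early secretory pathway together with ZnT6. Its level (1422497_at) was 8.84, 9.25, 8.67, 8.97 and 8.41 in pregnant and 8.30, 8.19 and 7.97 in lactating CBA/CaH mice. In QSi5 it was 9.06, 9.06, 8.85, 7.14 and 9.26 in pregnancy and 7.92, 7.77 and 8.10 in lactation. The pregnancy arrays lay above all 6 lactation arrays, except pregnancy QSi5 array 4, which lay below them. The difference was -0.67 in CBA/CaH (SE 0.36, adjusted p of 0.123) and -0.74 in QSi5 (SE 0.36, adjusted p of 0.0855), and neither passed. Without array 4 the gene fell in both strains, with a difference of -0.67 in CBA/CaH (adjusted p of 0.00339) and -1.12 in QSi5 (adjusted p of 7.08e-05). The difference also passed with the Gapdh covariate and with array weights in both strains. With cyclic loess it was -0.06 and -0.04, and with quantile normalization -0.02 and -0.0041. On array 4 the Gapdh difference was 6.50, beside 1.20 to 1.74 on the other 4 arrays of that group. Its part in these values was not tested beyond leaving the array out, the Gapdh covariate and the array weights.

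Slc34a2 encodes the sodium phosphate cotransporter NaPi-IIb, known from the apical membrane of secretory epithelia. Its probe set (1416854_at) read 8.71, 9.39, 8.94, 9.46 and 8.51 in pregnant CBA/CaH mice and 7.82, 7.47, 7.31, 7.12 and 8.65 in pregnant QSi5 mice. In lactation it read 12.31, 12.85 and 13.11 in CBA/CaH and 12.47, 12.28 and 12.60 in QSi5. Every lactation array lay above every pregnancy array. The rise was 3.75 in CBA/CaH (SE 0.31, adjusted p of 2.60e-07), or 13.5-fold, and 4.78 in QSi5 (SE 0.31, adjusted p of 1.61e-08), or 27.4-fold. Both calls held under every alternative run. The 250 bases before its start, chr5:53049103-53049352 on the plus strand of GRCm38.p6, are shown because it was, with Slc39a8, the member that rose most, and the 2 metal response cores are in capitals.
Slc34a2: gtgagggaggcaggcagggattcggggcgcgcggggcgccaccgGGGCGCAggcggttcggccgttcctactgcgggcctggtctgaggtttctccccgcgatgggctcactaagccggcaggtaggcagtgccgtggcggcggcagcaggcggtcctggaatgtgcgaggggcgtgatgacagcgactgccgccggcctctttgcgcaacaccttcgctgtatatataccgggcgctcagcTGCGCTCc

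Slc20a1 encodes PiT1, a widely expressed sodium phosphate cotransporter that also serves as a retrovirus receptor. Its leading probe set (1448568_a_at) read 8.65, 8.83, 8.05, 8.11 and 8.51 in pregnant and 9.03, 9.57 and 9.85 in lactating CBA/CaH mice, without overlap. In QSi5 it read 8.42, 8.45, 8.31, 8.92 and 9.24 in pregnancy and 9.44, 9.08 and 9.76 in lactation, where pregnancy array 5 lay above the lowest lactation array. The rise was 1.05 in CBA/CaH (SE 0.25, adjusted p of 0.00296) and 0.76 in QSi5 (SE 0.25, adjusted p of 0.0181). With quantile normalization the differences were 1.67 in CBA/CaH and 1.50 in QSi5 (adjusted p of 1.06e-04 and 2.16e-04), and with cyclic loess 1.69 and 1.48. The QSi5 call was lost with equal array medians, at 0.54 (adjusted p of 0.101), and without lactation array 1 or 3. A lower-reading probe set of the gene (1438824_at) rose by 1.31 and 1.48 (adjusted p of 3.59e-04 and 9.78e-05), and held under every alternative that kept it. The third (1446441_at) read 3.46 to 3.86 in pregnancy and 3.78 to 4.82 in the parental strains in lactation, near the bottom of the array's scale. It rose by 0.72 in CBA/CaH (adjusted p of 0.00636), a call lost with quantile normalization, with cyclic loess and without lactation CBA/CaH array 1 (adjusted p up to 0.076), and differed by 0.43 in QSi5 (adjusted p of 0.0663). The QSi5 difference passed under 8 alternatives, among them without pregnancy QSi5 array 4, lactation CBA/CaH array 1 or 3 or lactation QSi5 array 2, down to an adjusted p of 0.00938. All 3 probe sets thus pointed up in both strains. Of its 2 listed starts the upstream one has a match, shown in capitals within chr2:129198523-129198772 on the plus strand of GRCm38.p6, for comparison with Slc34a2.
Slc20a1: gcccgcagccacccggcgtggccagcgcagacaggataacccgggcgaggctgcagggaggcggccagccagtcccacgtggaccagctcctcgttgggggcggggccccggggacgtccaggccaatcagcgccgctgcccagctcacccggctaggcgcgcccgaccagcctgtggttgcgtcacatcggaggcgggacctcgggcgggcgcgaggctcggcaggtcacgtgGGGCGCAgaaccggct

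Slc20a2 encodes PiT2, the close relative of PiT1, and its 2 probe sets went opposite ways. The leading one (1451768_a_at) read 7.58, 7.47, 7.69, 7.71 and 7.78 in pregnant and 7.99, 7.69 and 7.94 in lactating CBA/CaH mice, with overlap. In QSi5 it read 7.37, 7.43, 7.59, 7.93 and 7.66 in pregnancy and 7.98, 8.20 and 8.00 in lactation, without overlap. It differed by 0.23 in CBA/CaH (adjusted p of 0.169) and rose by 0.47 in QSi5 (SE 0.14, adjusted p of 0.00799), a call lost with equal array medians (adjusted p of 0.121). With quantile normalization the differences were 0.83 in CBA/CaH and 1.18 in QSi5 (adjusted p of 0.00107 and 4.37e-05), and with cyclic loess 0.74 and 1.07. All 4 of these values passed. The second (1434235_at) read 8.33, 8.34, 7.63, 8.24 and 8.73 in pregnant and 7.13, 6.67 and 6.48 in lactating CBA/CaH mice. In QSi5 it read 8.33, 8.49, 8.24, 8.88 and 8.48 in pregnancy and 6.44, 6.44 and 6.45 in lactation, below every pregnancy array. It fell, with a difference of -1.50 in CBA/CaH (SE 0.21, adjusted p of 4.58e-05), or 2.82-fold, and -2.04 in QSi5 (SE 0.21, adjusted p of 1.79e-06), or 4.11-fold. Those calls held under every alternative run. The probe sets were not traced to transcript forms, since probe positions were not used here.

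**Figure D2:**
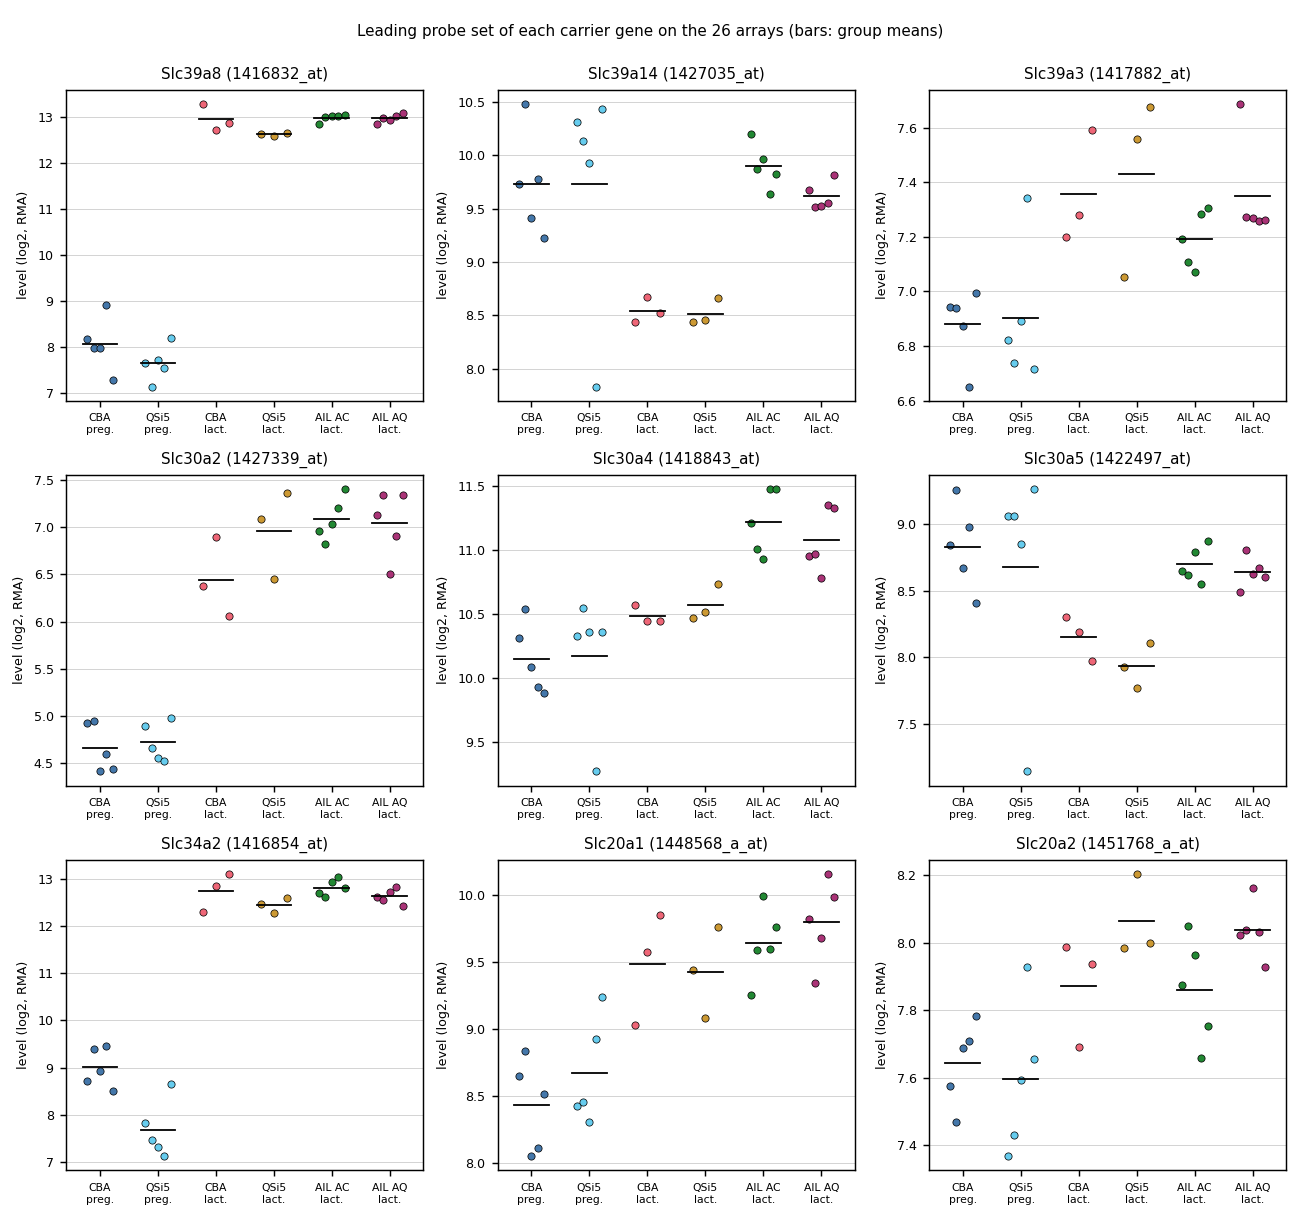
Level (y axis, log2 RMA) of the leading probe set of each of the 9 genes on every array, by group (x axis), with bars at group means and an axis range of its own in each panel. Slc39a8, Slc30a2 and Slc34a2 separate pregnancy from lactation on all arrays. Pregnancy QSi5 array 4 lies lowest for Slc39a14, Slc30a4, Slc30a5 and Slc34a2.

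Promoter windows, 250 bases before to 50 after a RefSeq start, were at hand for 7 of the 9 genes, as 9 windows. A metal response core was found in 7 of the 9 windows, at least 1 for each of the 7 genes, beside 25.7% of all 32851 windows of the same length. Member windows had a GC content of 48.0% to 81.7%, against a median of 52.7% over all windows and 60.3% over those with a match. The interferon-gamma activated sequence that STAT5 binds, TTCNNNGAA, had no match in the 9 windows, against 8.30% of all windows with one. Matches are of letters, and no binding was measured. Every gene with a window had a match, so genes with and without one could not be compared. Of these genes, Slc34a2 and Slc39a8 rose in both strains, while Slc30a5 was called in neither. The part of the matches in any difference was not tested.

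Markers of cell types moved with the stages. Of 7 luminal epithelial markers, 1 was higher and 5 lower in lactation in CBA/CaH, and 6 were lower in QSi5. The median of this list, each marker relative to its own mean over the 26 arrays, was 0.76 to 1.93 on the pregnancy arrays and -1.09 to 0.07 on the parental lactation arrays. Of 7 milk protein and secretory markers, 2 were higher in CBA/CaH and 3 in QSi5, and none was lower. Of 6 fibroblast markers, 5 were lower in each strain, and of 6 white adipocyte markers measured, 5 were lower in CBA/CaH and 2 in QSi5. The fibroblast median was -0.36 to 2.09 in pregnancy and -1.67 to -0.83 on parental lactation arrays, and the white adipocyte median -1.70 to 2.15 and -1.30 to -0.55. Myoepithelial markers were lower for 5 of 7 in CBA/CaH and 6 of 7 in QSi5, endothelial markers for 4 of 6 and macrophage markers for 3 of 6 in each strain. B and plasma cell markers were higher for 2 of 7 in CBA/CaH and 7 of 7 in QSi5, with list medians of -0.83 to -0.30 on the pregnancy QSi5 arrays and 0.17 to 2.45 on the lactation QSi5 arrays. T cell markers were higher for 2 of 5 in CBA/CaH and 3 of 5 in QSi5. Brown adipocyte markers were higher for 1 and lower for 3 of 7 in CBA/CaH, and higher for 3 in QSi5. Of 10 skeletal muscle markers 1 was higher in each strain, and of 3 erythroid markers 1 was lower in QSi5. In whole tissue, fewer cells of a type and less RNA per cell cannot be told apart. The part of cell composition in the fall of the leading Slc39a14 probe set or in any rise was not tested. Slc39a8, Slc30a2 and Slc34a2 rose while most luminal markers fell and 2 or 3 of the 7 secretory markers rose. The part of either list in these rises was not tested.

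The second question was whether the parental strains differed. In pregnancy 1 of 17 probe sets passed, Slc34a2, where 1.09% of the array passed. It was lower in QSi5, at 7.12 to 8.65, than in CBA/CaH, at 8.51 to 9.46, with an overlap made by QSi5 array 5. The lowest QSi5 value was that of array 4, with its Gapdh difference of 6.50, and the call held without this array. The difference was -1.33 (SE 0.26, adjusted p of 0.0181). The call was lost with only the pregnancy groups in the fit, at an adjusted p of 0.0902, and without pregnancy CBA/CaH array 2 or pregnancy QSi5 array 2 or 3, up to 0.0902. Over all alternatives the difference lay between -1.57 and -1.19. In lactation the strains' Slc34a2 values overlapped and differed by -0.30 (95% interval -1.03 to 0.42). None of the 17 passed in lactation with limma, 0 also at an unadjusted p under 0.05, beside 0.289% of the array called and 5.2% under 0.05 unadjusted. The largest lactation difference of a member was that of Slc30a2, with QSi5 minus CBA/CaH at 0.52 (95% interval -0.01 to 1.04). The change with stage was tested for a difference between strains as an interaction. None of the 17 passed with limma, and 1 had an unadjusted p under 0.05, beside 0.104% of the array called. That was Slc34a2, whose rise was larger in QSi5 by 1.03 (95% interval 0.11 to 1.95, limma adjusted p of 0.891). For Slc39a8 the interaction was 0.08 on the leading probe set (95% interval -0.77 to 0.93) and for Slc30a2 0.46 (95% interval -0.20 to 1.12).

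The third question was how the intercross mice compared with either parent in lactation. The AIL mean of the 2 codes was set against each strain, and both comparisons share the 10 AIL arrays. Against CBA/CaH, 8 of 17 probe sets (47.1%) passed, 7 higher and 1 lower in the AIL, where 32.0% of the array passed, 14.7% higher and 17.4% lower. Against QSi5, 8 passed, all higher, where 36.0% of the array passed, 15.7% higher and 20.3% lower. With equal array medians, 8104 probe sets of the array were higher and 4627 lower against CBA/CaH, where the values as deposited gave 6611 and 7814, and 9047 and 4944 against QSi5, where they gave 7085 and 9135. The members then split into 7 and 1 and into 8 and 0. The Gapdh difference did not overlap between AIL and parental arrays, as given above. With it as a covariate, 557 and 837 probe sets of the array passed in place of 14425 and 16220, and 2 members in each comparison, 1448482_at of Slc39a8 and 1427035_at of Slc39a14. Since the Gapdh values of the 2 sets of mice do not overlap, line and RNA integrity cannot be told apart for any member. This holds for the 2 that kept their call as well, since the covariate's slope rests on the spread within groups.

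**Figure D3:**
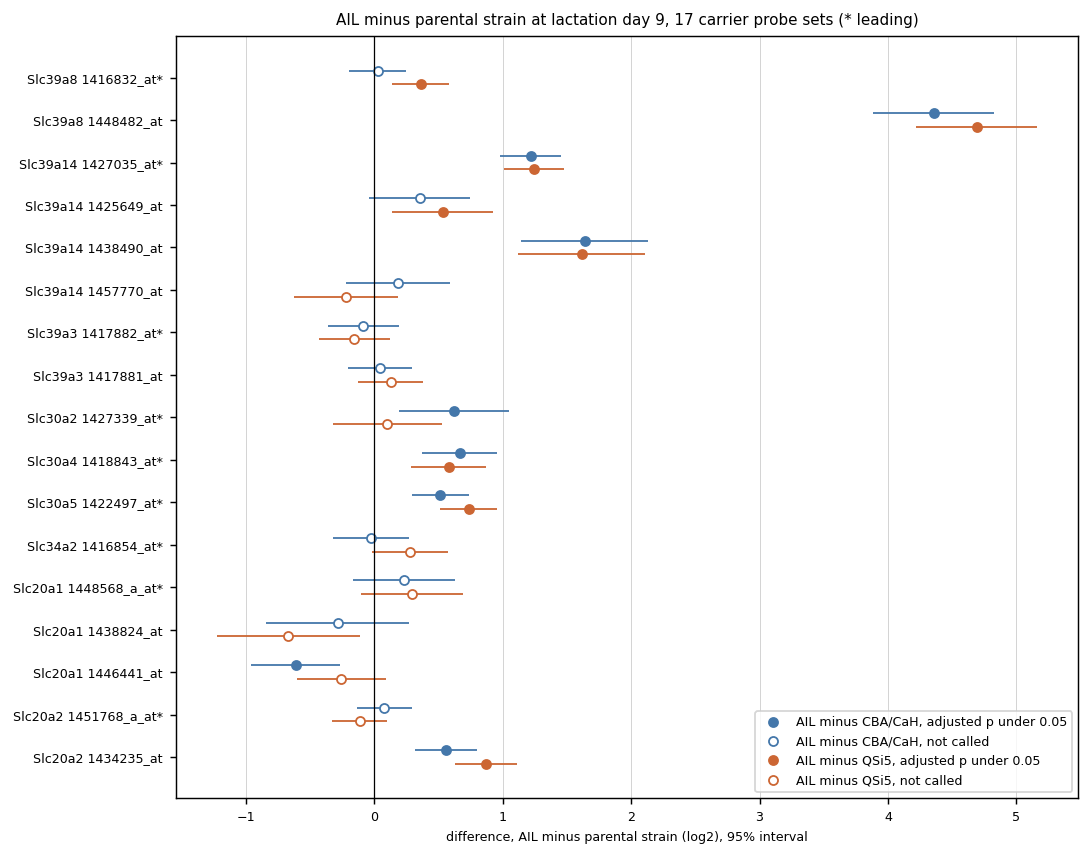
AIL minus parental strain difference at lactation day 9 (x axis, log2) for the 17 carrier probe sets (y axis, leading ones starred), against CBA/CaH and against QSi5. Points are limma estimates, bars 95% intervals, and filled points passed an adjusted p of 0.05. The second Slc39a8 probe set stands alone past 4, and the leading one lies near 0.

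The 2 probe sets of Slc39a8 gave unlike answers. The second (1448482_at) read 10.54, 11.51, 11.41, 10.60 and 10.50 in AIL AC and 10.85, 10.89, 11.12, 10.86 and 11.02 in AIL AQ. On the 6 parental lactation arrays it read 5.87 to 7.03, so the lowest AIL array lay over 3 log2 units above the highest parental one. The AIL was higher by 4.36 than CBA/CaH (SE 0.23, adjusted p of 8.68e-10), or 20.5-fold, and by 4.69 than QSi5 (SE 0.23, adjusted p of 2.96e-10), or 25.8-fold. With the Gapdh covariate the differences were 3.30 (adjusted p of 0.0018) and 3.66 (adjusted p of 5.40e-04). The leading probe set (1416832_at) read 12.84 to 13.09 in the AIL and 12.58 to 13.29 in the parents. It differed by 0.03 from CBA/CaH (95% interval -0.20 to 0.25, adjusted p of 0.876). Against QSi5 it was higher by 0.36 (SE 0.11, adjusted p of 0.0138), a call lost under 6 alternatives, lactation QSi5 array 2 left out among them, up to an adjusted p of 0.279. In pregnancy the second probe set was highest in CBA/CaH on array 4, whose Gapdh difference of 0.89 was the lowest of its group. The leading probe set was also highest of its group on that array, at 8.91. The same array had the highest marker medians of its group for fibroblasts (2.09), macrophages (1.36), white adipocytes (2.15), endothelium (1.14) and myoepithelium (1.09), and the part of these in its value was not tested. In pregnant QSi5 mice the second probe set read 4.25 on array 4, which had the highest Gapdh difference, 6.50. The range of that group was 3.56 to 4.47. Which part of the transcript each probe set reads was not used here. Whether these values follow RNA integrity was tested only by the covariate, which cannot separate it from line.

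**Figure D4:**
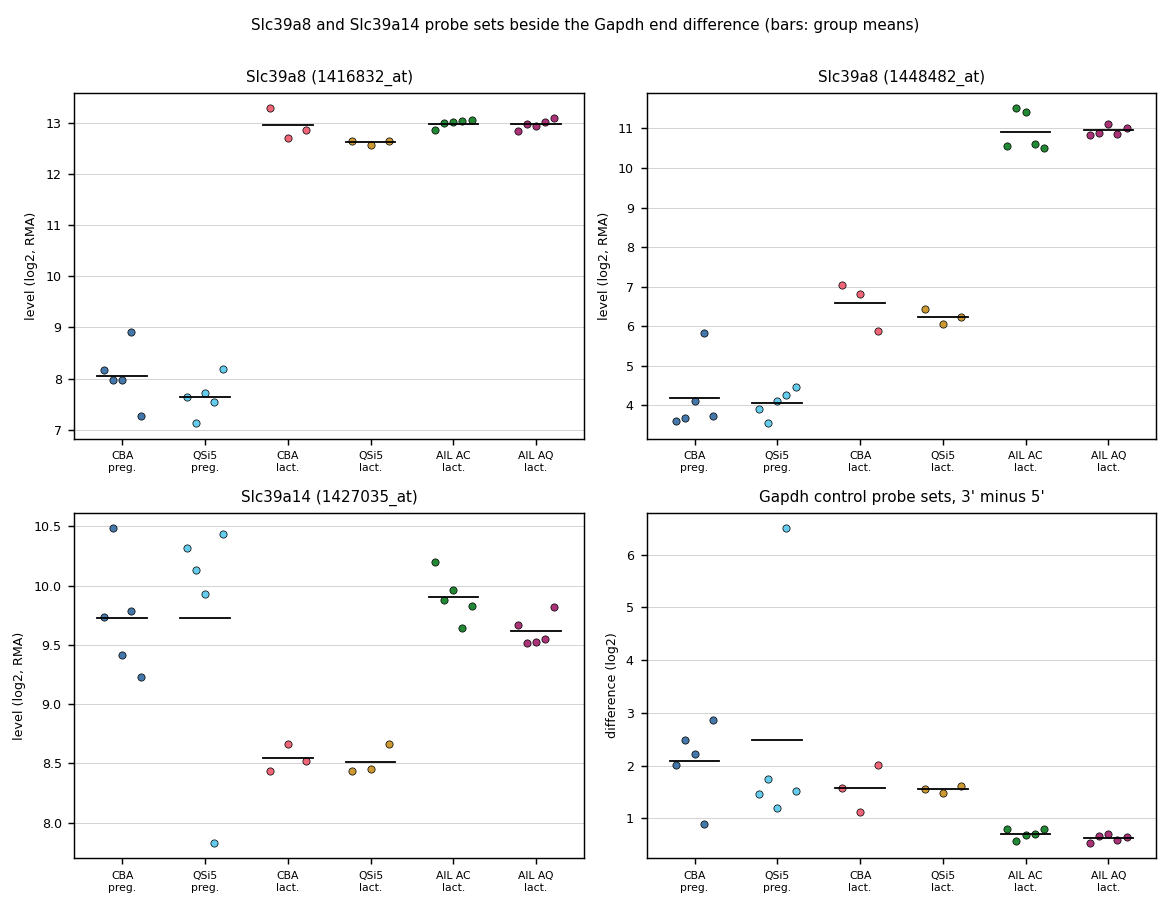
Level (y axis, log2 RMA) of the 2 Slc39a8 probe sets and the leading Slc39a14 one, and the 3' minus 5' difference of the Gapdh controls (log2), on every array by group (x axis) with bars at group means. The 10 AIL arrays lie apart from the 6 parental lactation arrays in every panel but that of 1416832_at, high for 1448482_at and 1427035_at and low for Gapdh.

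Slc39a14 was higher in the AIL on 2 of its 4 probe sets against CBA/CaH and on 3 against QSi5. The leading one (1427035_at) read 10.20, 9.87, 9.97, 9.64 and 9.83 in AIL AC and 9.67, 9.52, 9.53, 9.55 and 9.82 in AIL AQ, all above the 6 parental arrays at 8.43 to 8.67. The difference was 1.22 from CBA/CaH (SE 0.11, adjusted p of 4.58e-07) and 1.24 from QSi5 (SE 0.11, adjusted p of 3.33e-07). With the Gapdh covariate it was 1.14 (adjusted p of 0.0382) and 1.17 (adjusted p of 0.0264). The probe set 1438490_at was higher by 1.64 and 1.61 (adjusted p of 5.71e-05 and 6.22e-05), at 6.46 to 7.67 against 4.76 to 5.92. With the covariate it kept its size at 1.70 and 1.68 but did not pass (adjusted p of 0.137 and 0.114). The third, 1425649_at, differed by 0.35 from CBA/CaH (adjusted p of 0.162), and passed with the replicate number as a block, at 0.58 (adjusted p of 0.00909), or with a factor for AIL arrays 4 and 5 against 1 to 3 (adjusted p of 0.0425). It was higher than QSi5 by 0.53 (adjusted p of 0.0348), a call lost under 8 alternatives, among them without lactation QSi5 array 2 or 3 or AIL AQ array 1, up to an adjusted p of 0.923. Stromal markers were higher in the AIL as well: 6 of 6 fibroblast markers against each parent, 5 and 4 of 6 macrophage markers, and 5 and 4 of 6 white adipocyte markers measured. The fibroblast median was -0.34 to 0.70 on AIL arrays and -1.67 to -0.83 on parental lactation arrays, with no overlap, and the white adipocyte median -0.43 to 0.74 and -1.30 to -0.55. Their part in the Slc39a14 difference was not tested.

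The zinc exporters Slc30a4 and Slc30a5 were higher in the AIL than in both parents. Slc30a4 read 10.78 to 11.48 in the AIL and 10.44 to 10.74 in the parents, without overlap, and was higher by 0.66 than CBA/CaH (SE 0.14, adjusted p of 0.0015) and by 0.58 than QSi5 (SE 0.14, adjusted p of 0.00367). Slc30a5 read 8.49 to 8.88 against 7.77 to 8.30, also without overlap, and was higher by 0.51 (SE 0.11, adjusted p of 0.00137) and 0.73 (SE 0.11, adjusted p of 5.42e-05). With the Gapdh covariate the Slc30a4 differences were 0.75 and 0.67 and those of Slc30a5 0.43 and 0.66, none of them called. Their adjusted p then lay at 0.264 and 0.277 for Slc30a4 and 0.412 and 0.155 for Slc30a5. With quantile normalization the Slc30a4 differences were 0.41 and 0.33 and those of Slc30a5 0.19 and 0.39. Slc30a5 against CBA/CaH lost its call with quantile normalization, cyclic loess or all 26 arrays in the fit. Slc30a2 was higher than in CBA/CaH by 0.62 (SE 0.20, adjusted p of 0.026) with overlapping arrays. That call was lost under 6 alternatives, among them without lactation CBA/CaH array 1 or 3, and the difference was 0.07 with the covariate. From QSi5 Slc30a2 differed by 0.10 (95% interval -0.32 to 0.53).

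Among the phosphate carriers, Slc34a2 did not pass in the AIL, while the second Slc20a2 probe set did. Slc34a2 read 12.43 to 13.05 in the AIL and 12.28 to 13.11 in the parents, and differed by -0.03 from CBA/CaH (95% interval -0.32 to 0.27) and by 0.27 from QSi5 (95% interval -0.02 to 0.57). The intervals leave room for a difference of no more than 0.57 log2 units. The Slc20a2 probe set 1434235_at read 7.13 to 7.53 in the AIL, above all 6 parental arrays though by under 0.01 at the closest, and was higher by 0.56 than CBA/CaH (SE 0.11, adjusted p of 0.00134) and 0.87 than QSi5 (SE 0.11, adjusted p of 2.21e-05). With the covariate it was 0.42 and 0.73 and was not called (adjusted p of 0.474 and 0.141). The lowest-reading Slc20a1 probe set (1446441_at) was the only member called lower in the AIL, at -0.61 against CBA/CaH (adjusted p of 0.00896). It lost the call with the Gapdh covariate and without lactation CBA/CaH array 1, which read 4.82, up to an adjusted p of 0.157. The leading probe sets of Slc20a1, Slc20a2 and Slc39a3 passed against neither parent, at 0.23, 0.08 and -0.09 against CBA/CaH and 0.29, -0.11 and -0.16 against QSi5. With quantile normalization Slc20a2 and Slc39a3 were lower than in QSi5, at -0.45 and -0.42 (adjusted p of 0.00783 and 0.0316), as with cyclic loess.

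Within the AIL, the arrays numbered 4 and 5 in both codes stood apart from those numbered 1 to 3 for some members, a split noticed in these data that the labels do not explain. Of the 17 probe sets, 3 had no overlap between the 6 arrays numbered 1 to 3 and the 4 numbered 4 or 5. The share of the whole array without such overlap was not counted, so nothing particular to the carriers follows from this count. Slc30a4 read 10.78 to 11.21 on arrays 1 to 3 and 11.33 to 11.48 on arrays 4 and 5. Slc39a14 ran the other way, with 1425649_at at 8.57 to 9.09 and 8.12 to 8.36 and 1457770_at at 5.03 to 5.40 and 4.56 to 4.86. The factor named above is balanced within each code, so it leaves the AIL differences unchanged and alters only their residual spread. With it, Slc20a1 1438824_at also passed against QSi5, at -0.67 as in the main fit (limma adjusted p of 0.0308). The part of this split in the AIL differences was therefore not tested.

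Between the codes AQ and AC no probe set of the array passed with limma, so the background was 0%. Of the 17 members, 0 passed and 1 had an unadjusted p under 0.05, beside 2.86% of the array under 0.05 unadjusted. That was the leading Slc39a14 probe set, lower in AQ with a difference of -0.28 (95% interval -0.51 to -0.06, limma adjusted p of 1). The differences of the 17 lay between -0.28 and 0.40.

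The order of the 6 group means differed between the genes. For the leading Slc39a8 probe set it ran from AIL AC (12.99) through AIL AQ (12.97), lactating CBA/CaH (12.96) and QSi5 (12.62) to pregnant CBA/CaH (8.06) and QSi5 (7.64). In this order the first 3 groups overlapped with their neighbours, as did the last 2, while the lactating parental strains overlapped neither each other nor the pregnancy groups. Slc34a2 ran from 12.82 in AIL AC through 12.75 in lactating CBA/CaH, 12.63 in AIL AQ and 12.45 in lactating QSi5, all overlapping, to 9.00 and 7.67 in pregnant CBA/CaH and QSi5. Slc30a2 had the same 4 lactation groups on top, 7.08 to 6.44, and no overlap with pregnancy at 4.72 and 4.67. For Slc30a4 both AIL groups, at 11.22 and 11.08, stood without overlap above the other 4, at 10.57 to 10.15, which overlapped with their neighbours. The leading Slc39a14 probe set put 4 overlapping groups, 9.90 to 9.62, without overlap between neighbours above lactating CBA/CaH (8.54) and QSi5 (8.52). For Slc30a5 the order of means was the same in kind, with 4 groups at 8.83 to 8.64 above the lactating parents at 8.16 and 7.93. In both genes pregnancy QSi5 array 4 lay below every lactating parental array, at 7.83 for Slc39a14 and 7.14 for Slc30a5. The group means of the leading probe sets of Slc20a2 and Slc39a3 spanned 0.47 and 0.55, with every neighbour overlapping.

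Other carriers of the same ions were counted on their leading probe sets, from a list of 28 genes that were all measured. In CBA/CaH 9 were higher and 8 lower in lactation, and in QSi5 9 and 9. Of 11 other ZIP importers, CBA/CaH had 5 higher and 3 lower, and QSi5 had 4 higher and 3 lower. Of 7 other ZnT exporters, CBA/CaH had 2 higher and 2 lower, and QSi5 had 3 of each. Of 6 manganese or iron carriers, 1 was higher and 1 lower in each strain, and of 4 other phosphate carriers, 1 was higher and 2 lower. Slc39a4, ZIP4, the importer that takes zinc from the gut, fell in CBA/CaH, where the pregnancy arrays ranged over 7.33 to 8.36 and the lactation arrays over 4.42 to 5.09, a difference of -3.05 (adjusted p of 2.24e-07), and differed by -3.51 in QSi5 (adjusted p of 3.80e-08). Slc39a6, ZIP6, rose by 1.32 and 1.05 (adjusted p of 2.99e-05 and 1.60e-04). Slc30a1, ZnT1, the zinc exporter of the plasma membrane, fell, with differences of -1.25 and -1.99 (adjusted p of 2.42e-04 and 2.82e-06), while its other probe set differed by -0.03 and -0.16 and passed in neither strain. Atp2c2, a Golgi pump for calcium and manganese, rose in CBA/CaH, where the pregnancy arrays ranged over 6.74 to 8.62 and the lactation arrays over 10.18 to 10.50, by 3.10 (adjusted p of 1.74e-05), and by 3.02 in QSi5 (adjusted p of 1.55e-05). Xpr1, the phosphate exporter, fell on its leading probe set, with differences of -1.02 and -1.24 (adjusted p of 1.16e-05 and 1.15e-06), but it was the only one of its 7 probe sets called lower. Of the others, 2 were called higher in CBA/CaH and 4 in QSi5, one by 1.41 and 1.60 and another by 0.96 and 1.02. No direction can be given for that gene. Beside these, Slc39a8 was the ZIP gene, Slc30a2 the ZnT gene and Slc34a2 the phosphate carrier with the largest rise on a leading probe set in both strains. Since members and other carriers were listed with earlier results of these data known, this ranking may restate that choice. In the AIL, 10 of the 28 were higher and 2 lower than in CBA/CaH, and 14 and 2 against QSi5.

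**Figure D5:**
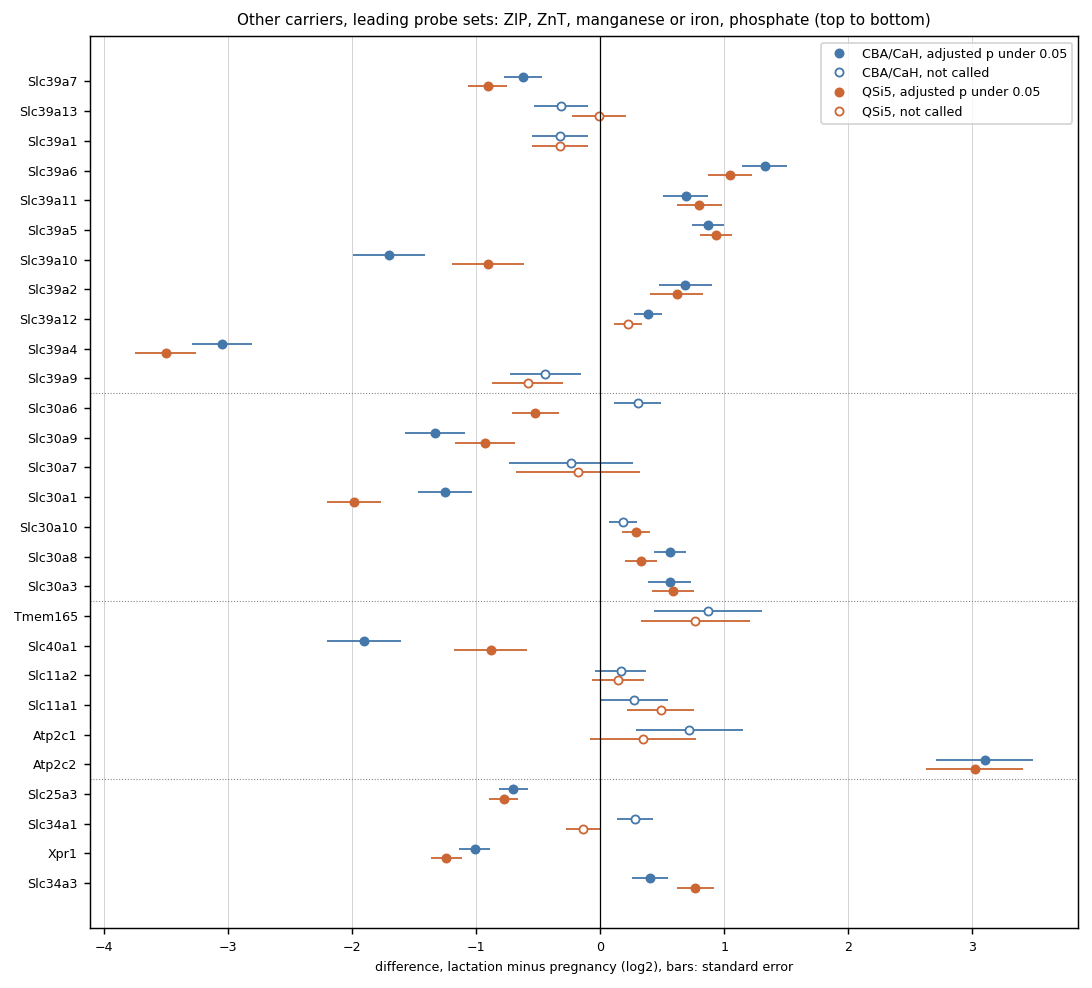
Lactation minus pregnancy difference (x axis, log2) of the leading probe set of 28 other carrier genes (y axis, grouped by dotted lines) in CBA/CaH and QSi5. Points are limma estimates, bars 1 standard error, and filled points passed an adjusted p of 0.05. Atp2c2 lies farthest right and Slc39a4 farthest left in both strains.

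For the 3 genes whose leading probe set has group means spanning at least 2 log2 units, the genes with the most similar profile over the 6 group means were found by the root mean square difference after centring, as a description over 6 points. The other probe sets of the members were not used for this. Slc39a8 was nearest to Wfdc3 (0.135), Gpaa1 (0.165, a probe set whose name marks possible cross-hybridisation) and Atp2b2 (0.292), which encodes a calcium pump of the plasma membrane. Slc34a2 was nearest to Lao1 (0.194), an amino acid oxidase of milk, Olah (0.332), a thioesterase of fatty acid synthesis, and Ddah1 (0.356). Slc30a2 was nearest to Tent5c (0.0884), Pbld1 (0.0979) and Hnrnpab (0.118). The group means share arrays and normalization, and nothing on shared control follows from the likeness.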

How the data were processed

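The values are log2 probe set intensities summarised by RMA, per the submitters' processing notes, as deposited by the authors for 26 arrays with 45101 probe sets. The RMA version, the probe set definition and whether all arrays were processed together are not given in the sources used here. RNA was extracted with a column kit and labelled as biotinylated cRNA, per the labels. The number of arrays limits the precision. Controls (64) were left out. Probe sets were named from the platform's annotation: 34945 had 1 symbol, 932 several and 9160 none. limma 3.58.1 in R 4.3.3 was fitted to 16 parental arrays (stage, strain, interaction) and to 16 lactation arrays (AIL against each parent, AQ against AC), with 1 mean per group, eBayes and Benjamini-Hochberg adjustment over 45037 probe sets. Every member probe set was named. Other carriers were named where called in both stage comparisons with a difference of at least 1. The fits were tested on simulated data. Promoters are from RefSeq, GRCm38.p6. The members, lists and tests were chosen with earlier results of these data known. Alternatives covered filters, scaling, weights, the Gapdh covariate, the arrays in the fit, a replicate block and each array left out.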

Additional observations from a re-analysis of the deposited data

Results flagged for a closer look

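Of 68 groups of member values tested, 7 held an array far from the others by Dixon's criterion, whose nominal rate is about 1 of 20 groups. That rate holds for independent groups, and these share their arrays. The share over the whole array was not counted, so nothing particular to the carriers follows from this count. The leading Slc39a14 probe set read 7.83 on pregnancy QSi5 array 4, where the other 4 read 9.93 to 10.44. On the same array Slc30a5 read 7.14 beside 8.85 to 9.26, Slc30a4 read 9.27 beside 10.33 to 10.55, and the leading Slc39a3 probe set read 7.34 beside 6.72 to 6.89. That array had a Gapdh 3' minus 5' difference of 6.50, against 1.20 to 1.74 on the others. On pregnancy CBA/CaH array 4 the second Slc39a8 probe set read 5.81 beside 3.60 to 4.11, and the Slc39a14 probe set 1457770_at read 5.27 beside 5.96 to 6.12. AIL AQ array 1 read 7.69 for the leading Slc39a3 probe set, where the others read 7.26 to 7.27.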

How the results depend on the processing

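The stage calls of Slc39a8 (both probe sets), Slc34a2, Slc30a2, Slc20a1 1438824_at and Slc20a2 1434235_at held in both strains under every alternative that kept them. With the mean of a gene's probe sets in place of the leading one, Slc20a2 turned sign: -0.63 in CBA/CaH (adjusted p = 0.00183), -0.79 in QSi5 (adjusted p = 0.000283) and 0.38 for the AIL against QSi5 (adjusted p = 0.00156). With equal array medians, 5 members were higher and 5 lower in QSi5 lactation. The lower count there was 1 with quantile normalization and 1 with only the groups compared, beside 8789 and 9640 of 45037 on the array. The strain call in pregnancy was 0 with only the groups compared, beside 306 on the array. In the AIL, the Gapdh covariate left 2 members higher against each parent, beside 394 on the array against CBA/CaH and 556 against QSi5. It left 0 members lower against CBA/CaH, beside 163 on the array. The 0 lower against CBA/CaH also held with probe sets of mean under 5 left out, beside 3625 of 24245. Against QSi5, 2 were lower with quantile normalization and 2 with cyclic loess, and 1 with a factor for AIL arrays 4 and 5 against 1 to 3. On the array 7754, 6217 and 9656 were lower under these settings, in that order. Leaving out single arrays gave 1 to 4 lower members in the CBA/CaH stage comparison (1 without pregnancy array 1 or 2 or lactation array 1 or 2), 1 to 4 in QSi5 (1 without pregnancy array 5), 0 to 1 for the strains in pregnancy, and 0 to 1 lower in the AIL against either parent (against QSi5 1 without AC array 3 or AQ array 1 or 5). The array's counts with single arrays left out are not given here, so these member counts are only a description. The cause of these changes was not tested. The replicate numbers were not taken to pair the samples, since no comparison had all its pairs above a correlation of 0.1. Same-numbered arrays of AQ and AC correlated at 0.00737 to 0.32 in their deviations, all above 0, and those of the other comparisons at -0.43 to 0.12. With the replicate block, the strain comparison in pregnancy called 0 members, beside 435 probe sets of the array, with Slc34a2 at an adjusted p of 0.0657. It ended the calls of Slc39a3 1417881_at between the QSi5 stages (adjusted p of 0.0999) and, in the AIL, of Slc30a2 against CBA/CaH (0.0927) and the leading Slc39a8 probe set against QSi5 (0.0603). It added calls for Slc30a5 and Slc20a1 1446441_at between the QSi5 stages and for Slc39a14 1425649_at and 1457770_at in the AIL against CBA/CaH. Precision is limited by the number of arrays, 3 in each lactating parental group.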
